A study of Homo sapiens with 21 samples.

Results

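The aryl hydrocarbon receptor gene AHR and 6 genes of its pathway (ARNT, AHRR, TIPARP, CYP1A1, CYP1B1 and NQO1) were followed across the 7 treatment groups, 7 of the 28395 genes in the count table. The 7 genes were picked by name after CYP1B1 was seen to fall with lapatinib alone in these libraries. The difference between lapatinib alone and DMSO is therefore described for all 7 genes without a test. RNA was measured in Hs578T cells, an established triple-negative breast cancer (TNBC) line of mesenchymal character, all labelled wild type and all collected after 8 h of treatment. The groups were DMSO (the solvent), 0.1 µM THZ531, 3.16 µM lapatinib, 1 µM nilotinib, 3.16 µM lapatinib with 0.1 µM THZ531, 1 µM nilotinib with 0.1 µM THZ531, and 1 µM THZ531, with 3 replicates each. THZ531 inhibits CDK12 and CDK13, the kinases that phosphorylate RNA polymerase II during elongation, lapatinib inhibits EGFR and HER2, and nilotinib inhibits BCR-ABL and related tyrosine kinases. The comparisons asked how the pathway's genes responded to a tyrosine kinase inhibitor, to THZ531 at a low or a high dose, and to both agents together.

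AHR is a ligand-activated transcription factor of the bHLH-PAS family that waits in the cytosol with HSP90, enters the nucleus once a ligand such as a dioxin or a tryptophan metabolite binds, and pairs with ARNT. The pair binds the core sequence GCGTG, called the xenobiotic response element, and induces the P450 enzymes CYP1A1 and CYP1B1 together with its own feedback inhibitors AHRR, which competes for ARNT, and TIPARP, a mono-ADP-ribosyltransferase that acts on AHR. NQO1, a quinone reductase, is a target of AHR and also of the oxidative stress factor NRF2.

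Because the pair acts through its core sequence, the promoters of the 7 genes were searched for GCGTG on both strands, from 250 bases before to 50 bases after each annotated start (RefSeq, GRCh38.p14). A promoter was matched for 6 of the 7 genes, all but CYP1B1, and 5 of these 6 held at least 1 GCGTG. The exception was ARNT. The sequence is short, and 36.5% of all 35116 promoters of the same length held it. The longer form TNGCGTG, which contains GCGTG, was in 5.51% of all promoters and was found for AHRR and NQO1. The 250 bases before the start are shown for both feedback inhibitors and for CYP1A1, because these 3 hold the core upstream of the start, with the GCGTG core in capitals (CACGC where it lies on the opposite strand).
AHRR, chr5:321464-321713, plus strand: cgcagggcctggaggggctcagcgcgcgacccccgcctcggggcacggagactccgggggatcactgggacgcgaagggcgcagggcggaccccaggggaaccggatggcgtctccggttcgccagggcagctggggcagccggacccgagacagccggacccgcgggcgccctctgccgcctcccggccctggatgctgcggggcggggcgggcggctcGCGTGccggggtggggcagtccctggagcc
TIPARP, chr3:156674340-156674589, plus strand: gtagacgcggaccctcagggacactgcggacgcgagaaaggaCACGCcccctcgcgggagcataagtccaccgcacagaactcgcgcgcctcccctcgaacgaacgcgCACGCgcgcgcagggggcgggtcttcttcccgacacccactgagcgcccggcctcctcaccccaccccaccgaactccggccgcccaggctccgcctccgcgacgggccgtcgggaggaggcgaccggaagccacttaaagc
CYP1A1, chr15:74725529-74725778, minus strand: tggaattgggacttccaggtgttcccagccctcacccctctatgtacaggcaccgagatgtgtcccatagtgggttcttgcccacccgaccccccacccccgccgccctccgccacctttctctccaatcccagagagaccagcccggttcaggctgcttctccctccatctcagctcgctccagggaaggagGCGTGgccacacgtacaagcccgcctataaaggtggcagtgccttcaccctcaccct

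The cores of AHR and NQO1 lie just after the start, and 30 bases around each are shown for that reason.
AHR, chr7:17298672-17298701, plus strand: gacgctctgttccgagaGCGTGccccggac
NQO1, chr16:69726542-69726571, minus strand: ccgtgcactacaCACGCgactcccacaagg

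The core began 30 bases before the start in AHRR, 57 bases before it in CYP1A1, and 208 and 142 bases before it in TIPARP, where both copies were on the opposite strand. It began at base 38 of the AHR transcript and at base 2 of the NQO1 transcript, on the opposite strand in NQO1. A second AHRR start had cores 247 and 42 bases upstream, and a pair of further TIPARP starts had none. A match describes these letters and not binding.

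Total counts per library ranged from 97612207 to 112229052. Levels are given as CPM, the share of a library's counts on a fixed scale after TMM correction of the library sizes (a trimmed mean of gene ratios), and values per kilobase are divided by the length of each gene's reference transcript. All 8 mesenchymal markers, among them VIM and FN1, reached 1 CPM, whereas CDH1 and EPCAM were among the 6 of 7 luminal markers that did not, as did ESR1 and PGR but not ERBB2. CD68 and PTPRC, 2 of the 5 leukocyte markers, also reached 1 CPM, while others such as CD3E and LYZ did not, and none of the 3 endothelial markers did. The summed leukocyte markers ranged from 96.2 to 180.2 CPM. CD68 and PTPRC were called higher than DMSO in both combinations and in 1 µM THZ531 (median log2 fold change 0.64, 0.60 and 0.83). In these treatments 34.3%, 33.7% and 33.1% of all tested genes were called higher, and the part of other cells in the results was not tested. Genes were tested with edgeR's quasi-likelihood test over 16036 genes and called at an adjusted p under 0.05 (Benjamini-Hochberg), and all 7 genes passed the filter on low counts. TMM sets the median gene to about no change. Scaling to the 13 mitochondrially encoded mRNAs instead moved the median log2 fold change of all genes to −0.69, −0.63 and −0.55 in lapatinib with THZ531, nilotinib with THZ531 and 1 µM THZ531 against DMSO, and library size alone to −0.34, −0.31 and −0.27, so rises and falls below are relative to the median gene.

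All 7 genes were detected in every library, at very different levels. Per kilobase of transcript, mean DMSO levels were 191 CPM for NQO1, 35.9 CPM for TIPARP, 26.4 CPM for AHR, 18.2 CPM for AHRR, 9.14 CPM for ARNT, 2.77 CPM for CYP1B1 and 0.329 CPM for CYP1A1. CYP1B1 rested on 690 to 2023 counts per library and CYP1A1 on 54 to 130, whereas the other 5 genes had at least 2092 counts in every library.

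**Figure D1:**
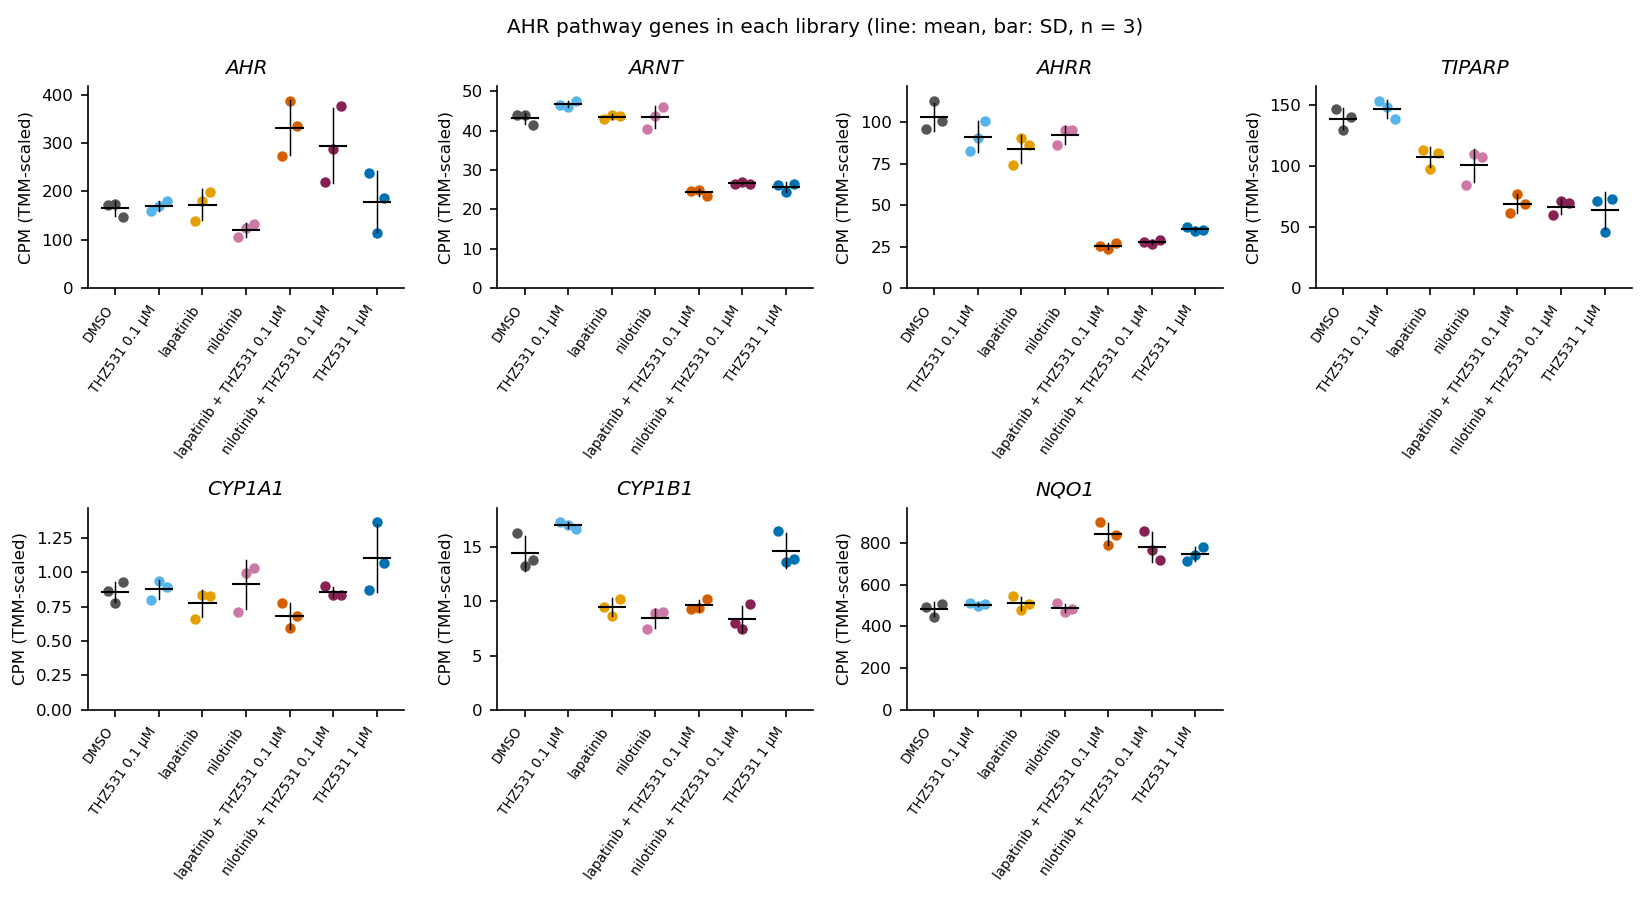
TMM-scaled CPM of each gene (linear axis from 0) in every library of the 7 treatment groups, with the mean (horizontal line) and SD (vertical bar) of 3 replicates. CYP1B1 lies between 7.42 and 10.3 CPM in all 12 libraries that received lapatinib or nilotinib and between 13.2 and 17.3 CPM in the other 9. These libraries include lapatinib alone and DMSO, on whose difference CYP1B1 was picked. AHRR, ARNT and TIPARP are lowest in both combinations and in 1 µM THZ531.

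CYP1B1, which hydroxylates oestrogens and polycyclic aromatic hydrocarbons, was low wherever a tyrosine kinase inhibitor was present. In DMSO its replicates were at 16.3, 13.2 and 13.8 CPM, and with lapatinib alone, the group it was selected on, at 9.48, 8.62 and 10.3 CPM (a difference of −0.61 ± 0.11 log2, SE). With nilotinib alone it was at 7.42, 8.89 and 9.03 CPM, below every DMSO library, a log2 fold change of −0.78 ± 0.11 (SE, n = 3 per group, edgeR adjusted p = 0.0033). In these bulk libraries, fewer cells with CYP1B1 RNA and less of it per cell cannot be told apart. CYP1B1 was the 1 gene of the 7 called with nilotinib alone, a comparison that shares its DMSO libraries with the lapatinib difference. Nilotinib changed little else, since 0.0998% of all tested genes were called lower and 0.243% higher.

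THZ531 alone left CYP1B1 at or above its DMSO level on the TMM scale. At 0.1 µM it was at 17.3, 17.1 and 16.7 CPM, all above DMSO, but the difference of 0.24 ± 0.11 (log2, SE) did not pass the test (edgeR adjusted p = 0.242). At 1 µM it was at 16.6, 13.6 and 13.9 CPM, with its highest library above DMSO and the others within the DMSO range. The difference from DMSO was 0.02 ± 0.11 (adjusted p = 0.853), but −0.23 with library size alone (adjusted p = 0.0712) and −0.54 with mitochondrial scaling (adjusted p = 0.0024). All 1 µM libraries lay below those of 0.1 µM, yet this difference of −0.21 ± 0.11 did not pass (adjusted p = 0.0918). It passed with library size alone (−0.44, adjusted p = 0.0020), with mitochondrial scaling (−0.77, adjusted p = 3.4e-05) and without 1 µM THZ531 replicate 1 (−0.31, adjusted p = 0.0271). With upper-quartile scaling it was 0.021 (adjusted p = 0.867).

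Adding 0.1 µM THZ531 did not bring CYP1B1 back up. Its level was 9.27, 9.39 and 10.2 CPM with lapatinib and THZ531 and 7.98, 7.45 and 9.78 CPM with nilotinib and THZ531. Against DMSO the log2 fold changes were −0.59 ± 0.11 and −0.78 ± 0.11 (edgeR adjusted p = 9.0e-05 and 3.2e-06). Both comparisons share their DMSO libraries with the lapatinib difference on which CYP1B1 was picked. Against 0.1 µM THZ531 alone, a comparison that has no library in common with lapatinib alone or DMSO, CYP1B1 fell by 0.82 ± 0.11 with lapatinib (adjusted p = 1.6e-06) and by 1.02 ± 0.11 with nilotinib (adjusted p = 1.0e-07). The combinations were also lower than 1 µM THZ531, by −0.61 ± 0.11 (adjusted p = 0.00031) and −0.81 ± 0.11 (adjusted p = 2.4e-05). Between the combinations the libraries overlapped, and the difference of 0.20 ± 0.11 did not pass the test (adjusted p = 0.525). None of these CYP1B1 calls was lost under any alternative scaling, filter, tool or left-out library that was run.

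CYP1A1, the classic inducible enzyme of the pathway, stayed near 1 CPM throughout. Its DMSO replicates were at 0.863, 0.777 and 0.927 CPM and those of lapatinib with THZ531 at 0.776, 0.591 and 0.679 CPM, which was not below DMSO by the test (log2 difference −0.33 ± 0.19 SE, edgeR adjusted p = 0.122). In 1 µM THZ531 it was at 0.871, 1.36 and 1.07 CPM, a difference of 0.36 ± 0.18 from DMSO (adjusted p = 0.0797). Lapatinib with THZ531 was below 1 µM THZ531, by −0.69 ± 0.19 (adjusted p = 0.0079), with no overlap, but this call was lost without 1 µM THZ531 replicate 2 (−0.51, adjusted p = 0.0671) and in a fit of only the groups compared (−0.67, adjusted p = 0.0786). At this depth no CYP1A1 difference from DMSO was called with TMM scaling of all 21 libraries. The rise in 1 µM THZ531 passed without replicate 1 of that group (0.51, adjusted p = 0.0239). With library size alone the fall with lapatinib and THZ531 passed (log2 fold change −0.66, adjusted p = 0.0040), as it did with mitochondrial scaling (−1.01, adjusted p = 0.00062). Nilotinib with THZ531, at −0.0016 with TMM scaling, was below DMSO with mitochondrial scaling (−0.62, adjusted p = 0.0286), and with upper-quartile scaling a rise in 1 µM THZ531 passed (0.57, adjusted p = 0.0105).

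The feedback inhibitor AHRR followed another pattern, with its lowest levels in the combinations and in 1 µM THZ531. Its replicates were at 96.0, 113 and 101 CPM in DMSO, 25.5, 23.9 and 27.1 CPM in lapatinib with THZ531, and 28.0, 26.6 and 28.9 CPM in nilotinib with THZ531. In 1 µM THZ531 it was at 36.8, 34.6 and 35.0 CPM, between the combinations and every other group, without overlap. Against DMSO AHRR fell by 2.02 ± 0.09 and 1.89 ± 0.09 in the combinations and by 1.54 ± 0.09 in 1 µM THZ531 (log2, SE, edgeR adjusted p = 1.2e-13, 3.1e-13 and 8.7e-12). It was lower in the combinations than in 1 µM THZ531, by −0.48 ± 0.09 with lapatinib and −0.35 ± 0.09 with nilotinib (adjusted p = 0.00033 and 0.0053). AHRR was at 82.8, 90.6 and 101 CPM in 0.1 µM THZ531 and at 86.1, 95.2 and 95.6 CPM in nilotinib, and neither difference from DMSO passed the test (adjusted p = 0.275 and 0.585). With lapatinib alone it was at 74.3, 90.5 and 86.5 CPM, all below DMSO, which is given without a test. The annotated readthrough gene PDCD6-AHRR overlaps AHRR on the same strand and had no row of its own, so reads of both could not be separated.

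**Figure D2:**
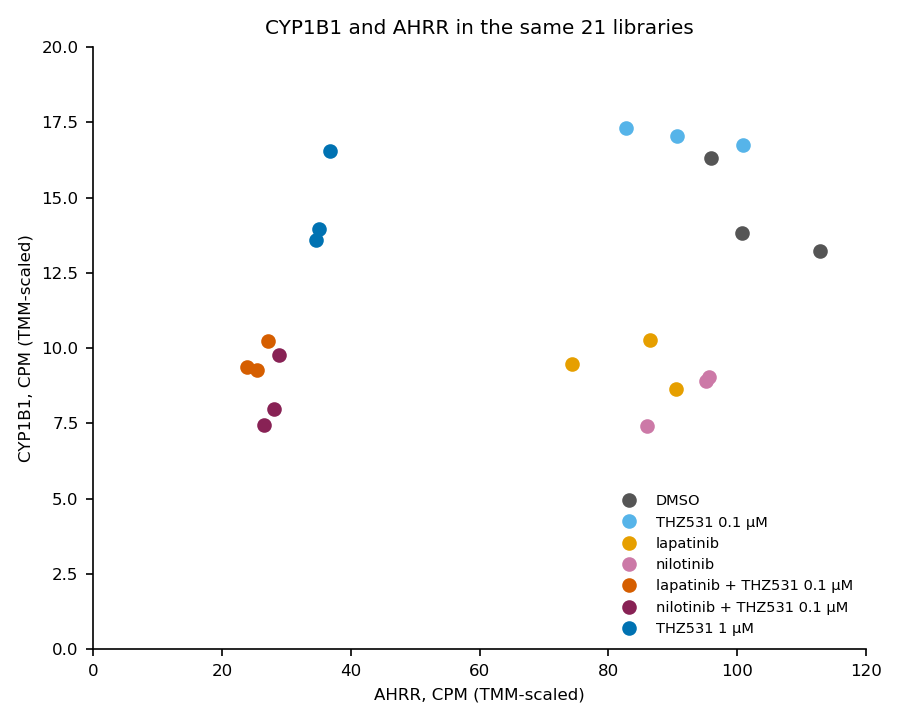
CYP1B1 (vertical axis) against AHRR (horizontal axis), both as TMM-scaled CPM on linear axes from 0, in the 21 libraries coloured by treatment. With TMM scaling the libraries fall into a high and a low CYP1B1 range at 13.2 to 17.3 and 7.42 to 10.3 CPM. Each range holds libraries with AHRR above 74 CPM and libraries with AHRR below 37 CPM. The ranges include lapatinib alone and DMSO, on whose difference CYP1B1 was picked. Scaled to mitochondrially encoded mRNAs, mean CYP1B1 was closer, at 10.7 CPM in lapatinib alone and 12.4 CPM in 1 µM THZ531.

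TIPARP, the other feedback inhibitor, was low in the same groups as AHRR and intermediate with either kinase inhibitor alone. DMSO replicates were at 146, 129 and 140.4 CPM. In lapatinib with THZ531 they were at 61.4, 77.1 and 68.5 CPM, in nilotinib with THZ531 at 59.7, 71.0 and 69.6 CPM, and in 1 µM THZ531 at 71.4, 46.2 and 73.3 CPM, all below every library of the other 4 groups. The log2 fold changes from DMSO were −1.01 ± 0.14, −1.05 ± 0.14 and −1.12 ± 0.14 (edgeR adjusted p = 1.8e-06, 1.1e-06 and 5.2e-07). The combinations did not differ from 1 µM THZ531 by the test (0.12 ± 0.14 and 0.07 ± 0.14, adjusted p = 0.594 and 0.793). With nilotinib alone TIPARP was at 84.5, 109.7 and 107 CPM, all below DMSO, yet the difference of −0.46 ± 0.14 had an unadjusted p of 0.0030 and an adjusted p of 0.160. It passed in 1 alternative, the fit without 1 µM THZ531 replicate 2 (adjusted p = 0.0442). Lapatinib alone gave 113, 97.7 and 111 CPM, also all below DMSO, which is described without a test. The antisense gene TIPARP-AS1 overlaps TIPARP and had only 18 to 55 counts per library, against at least 4413 for TIPARP.

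ARNT, the dimer partner, fell in the combinations and in 1 µM THZ531. Its replicates were at 43.8, 44.0 and 41.4 CPM in DMSO, 24.6, 25.0 and 23.3 CPM in lapatinib with THZ531, 26.5, 26.8 and 26.3 CPM in nilotinib with THZ531, and 26.2, 24.3 and 26.5 CPM in 1 µM THZ531. The falls from DMSO were −0.83 ± 0.06, −0.70 ± 0.06 and −0.75 ± 0.06 (log2, SE, edgeR adjusted p = 2.2e-10, 3.0e-09 and 1.4e-09). ARNT did not differ between either combination and 1 µM THZ531 by the test (−0.08 ± 0.06 and 0.05 ± 0.06, adjusted p = 0.371 and 0.638). In 0.1 µM THZ531 it was at 46.5, 46.0 and 47.5 CPM, above every DMSO library, with a difference of 0.12 ± 0.06 (adjusted p = 0.304).

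The receptor gene AHR was higher than DMSO in both combinations with TMM scaling. It was at 173, 174 and 148.0 CPM in DMSO, at 273, 387 and 335 CPM in lapatinib with THZ531, and at 220.2, 288 and 376 CPM in nilotinib with THZ531. No combination library overlapped DMSO. AHR rose by 1.01 ± 0.21 and 0.84 ± 0.21 (log2, SE, edgeR adjusted p = 0.00028 and 0.0015), but scaled to the 13 mitochondrially encoded mRNAs these differences were 0.32 and 0.20 and did not pass the test (adjusted p = 0.123 and 0.361). In 1 µM THZ531 the replicates spread widely, at 238, 113 and 186 CPM, and the difference from DMSO was 0.12 ± 0.21 (adjusted p = 0.633), which was −0.14 with library size alone (adjusted p = 0.578) and −0.45 with mitochondrial scaling (adjusted p = 0.0352). Against 1 µM THZ531, AHR was higher with lapatinib and THZ531 by 0.89 ± 0.21 (adjusted p = 0.0032). With nilotinib and THZ531 it was higher by 0.72 ± 0.21 (adjusted p = 0.0162), but libraries overlapped, and the call was lost without 1 µM THZ531 replicate 2 (0.48, adjusted p = 0.0951), without replicate 3 of that combination (0.51, adjusted p = 0.118) and in a fit of only the groups compared (0.76, adjusted p = 0.119). With nilotinib alone AHR was at 105, 124 and 132 CPM, below every DMSO library, with a difference of −0.45 ± 0.21 that did not pass (unadjusted p = 0.0454, adjusted p = 0.502). Lapatinib alone gave 139, 180.4 and 199.9 CPM, which overlapped DMSO. An annotated protein-coding gene overlaps AHR on the same strand and a long noncoding RNA gene on the opposite strand. Neither was matched to a row of the counts, so reads shared with AHR could not be separated.

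NQO1 rose in the combinations and in 1 µM THZ531 with TMM scaling. It was at 494, 445 and 508 CPM in DMSO, 900.2, 792 and 841 CPM in lapatinib with THZ531, 859, 766 and 720.0 CPM in nilotinib with THZ531, and 716, 743 and 782 CPM in 1 µM THZ531. These 9 libraries lay above the other 12. The log2 fold changes of 0.81 ± 0.07, 0.70 ± 0.07 and 0.63 ± 0.07 (SE, edgeR adjusted p = 3.4e-09, 3.1e-08 and 1.5e-07) became 0.12, 0.08 and 0.09 with the mitochondrial scaling and did not pass there (adjusted p = 0.484, 0.676 and 0.635). Each single agent at the low dose left NQO1 within 470.3 to 545 CPM, and neither nilotinib nor 0.1 µM THZ531 differed from DMSO by the test (0.02 ± 0.07 and 0.07 ± 0.07, adjusted p = 0.963 and 0.661).

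**Figure D3:**
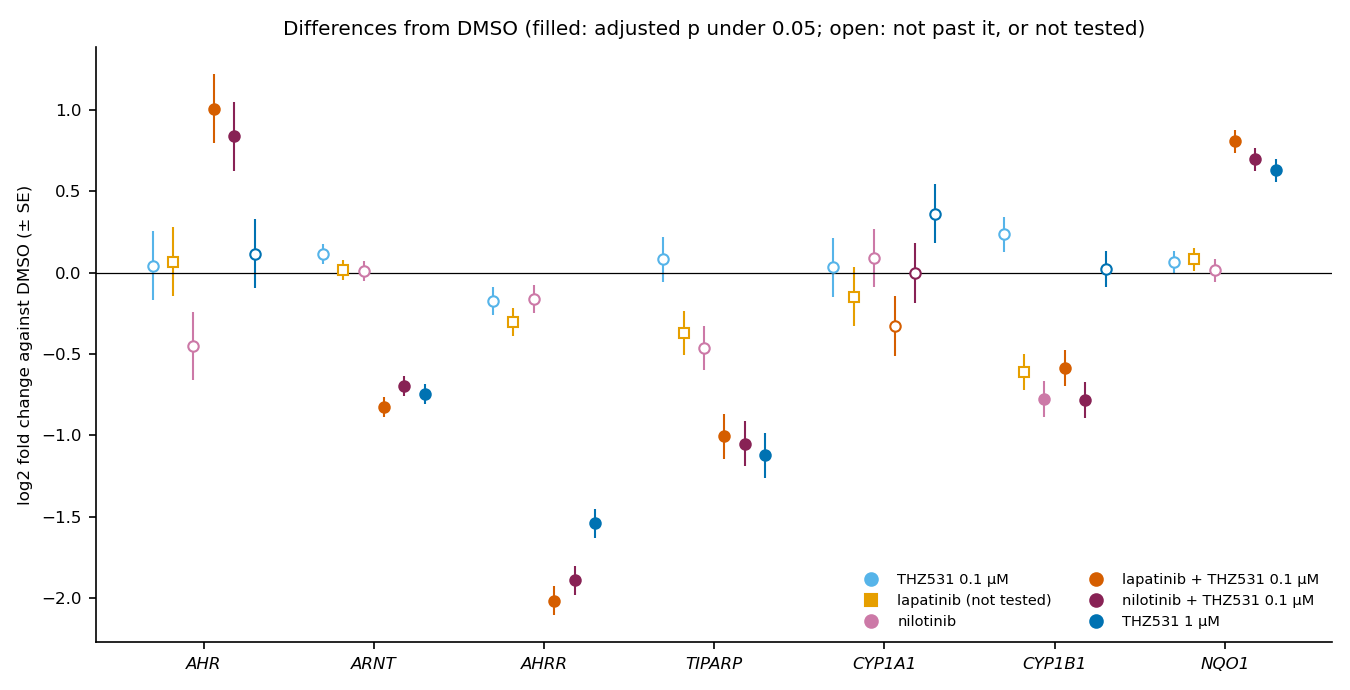
Log2 fold change against DMSO (vertical axis, points, with bars of 1 SE) of each gene in 6 treatments, filled where the edgeR adjusted p was under 0.05 and open where it was not or, for lapatinib alone (squares), where no test was made. CYP1B1 is lower in both kinase inhibitors and both combinations but not in THZ531 alone, whereas AHRR, ARNT and TIPARP fall and NQO1 rises in the combinations and in 1 µM THZ531. Scaled to mitochondrially encoded mRNAs, the rises of NQO1 and AHR did not pass the test and the 1 µM THZ531 values of AHR and CYP1B1 turned negative.

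The number of pathway genes called is read against the large share of all genes that these treatments moved. In lapatinib with THZ531 against DMSO, 4 of the 7 were called lower and 2 higher, where 37.8% of all tested genes were lower and 34.3% higher. Nilotinib with THZ531 gave the same counts, against 37.3% and 33.7% of all genes. In 1 µM THZ531, 3 were lower and 1 higher, against 36.8% and 33.1%. In 0.1 µM THZ531 edgeR and DESeq2 each called 0 of the 7, and 1 (CYP1B1) had an unadjusted p under 0.05, where 4.31% of all genes were called lower and 1.78% higher. With mitochondrial scaling the counts were 5 lower and 0 higher in each of these 3 treatments, and 9366, 8959 and 8424 of the 16036 genes were called lower and 850, 774 and 697 higher. Since most genes moved in these treatments, the counts alone do not set the 7 genes apart.

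Against 0.1 µM THZ531 each combination had 4 of the 7 genes called lower and 2 called higher, where the shares of all genes were 36.1% and 35.0% with lapatinib and 35.6% and 34.3% with nilotinib. The high dose had 3 and 1, against 35.9% and 34.3%. With mitochondrial scaling each of these 3 comparisons had 5 lower and 0 higher, and 9123, 8662 and 8133 of all genes were called lower and 789, 697 and 758 higher. AHR was then 0.28 and 0.15 above 0.1 µM THZ531 in the combinations (adjusted p = 0.199 and 0.512) and NQO1 0.058 and 0.015 (adjusted p = 0.756 and 0.942), so neither rise passed, whereas CYP1A1 passed as lower (−1.05 and −0.66, adjusted p = 0.00045 and 0.0220). Against 1 µM THZ531 fewer genes moved overall. There the lapatinib combination had 3 lower and 1 higher (16.1% and 12.8% of all genes), namely CYP1B1, AHRR and CYP1A1, and AHR. With nilotinib and THZ531, 2 were lower (CYP1B1 and AHRR) and 1 higher (AHR), against 13.0% and 11.2%. Between the 2 combinations edgeR and DESeq2 called 0 of the 7, 1 (ARNT) had an unadjusted p under 0.05, and 0.736% and 0.730% of all genes were called lower and higher with lapatinib.

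Whether 0.1 µM THZ531 acted differently in the presence of nilotinib was tested as an interaction, and 3 of the 7 genes had a lower and 2 a higher effect with nilotinib, where 31.2% and 25.6% of all genes did. With mitochondrial scaling 4 were lower and 1 higher, beside 6425 and 593 of all genes. AHRR fell by 1.55 ± 0.12 more with nilotinib than without (log2, SE, edgeR adjusted p = 2.0e-09), and ARNT and TIPARP by −0.82 ± 0.09 and −0.67 ± 0.19 (adjusted p = 8.7e-08 and 0.0061). AHR rose by 1.25 ± 0.30 more (adjusted p = 0.0015). NQO1 rose by 0.61 ± 0.10 more (adjusted p = 2.9e-05), which was 0.18 and not past the test with mitochondrial scaling (adjusted p = 0.526). CYP1B1 did not pass (−0.24 ± 0.16, adjusted p = 0.192), although it did with library size alone (−0.49, adjusted p = 0.0147), with mitochondrial scaling (−0.70, adjusted p = 0.0069) and without replicate 3 of nilotinib with THZ531 (−0.37, adjusted p = 0.0478). The nilotinib interaction shares its DMSO libraries with the lapatinib difference on which CYP1B1 was picked. The same interaction for lapatinib was not tested, because its lapatinib libraries were used to pick the genes as well. As a description, AHR in lapatinib with THZ531 was 0.94 higher than in lapatinib alone on the log2 scale and AHRR 1.72 lower, while CYP1B1 was at 9.63 and 9.45 CPM.

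Other genes of the pathway moved in both directions with TMM scaling, and in each list below mitochondrial scaling left at most 1 gene called higher. Among 13 AHR chaperones and coactivators, 5 were lower and 6 higher in lapatinib with THZ531 against DMSO (median log2 fold change 0.21, against −0.01 over all genes), and 8 and 0 with mitochondrial scaling (median −0.47). The shares of all tested genes were 37.8% lower and 34.3% higher, and with mitochondrial scaling 9366 and 850 of the 16036 genes. MED1, a subunit of the Mediator complex, fell from 80.6 to 16.9 CPM (−2.25 ± 0.11, edgeR adjusted p = 2.8e-13), and NRIP1, a nuclear receptor corepressor, rose from 45.4 to 82.2 CPM (0.86 ± 0.15, adjusted p = 2.6e-05, but 0.17 and 0.349 with mitochondrial scaling). In 1 µM THZ531 NRIP1 was at 38.3 CPM, and its difference from DMSO did not pass the test (−0.24 ± 0.15, adjusted p = 0.143). With nilotinib alone 0 of the 13 were called, where 0.0998% of all tested genes were called lower and 0.243% higher.

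Of 16 other bHLH-PAS and PER genes, 14 could be tested. In lapatinib with THZ531, 5 were lower and 5 higher (median −0.10), where 37.8% and 34.3% of all tested genes were. With mitochondrial scaling 9 were lower and 1 higher, beside 9366 and 850 of the 16036 genes. ARNT2, the paralogue of ARNT, fell from 52.7 to 14.5 CPM (−1.86 ± 0.06, edgeR adjusted p = 3.6e-15), a larger log2 change than that of ARNT. PER3, a circadian repressor, fell by 1.49 ± 0.11 (adjusted p = 1.2e-10), and EPAS1, which encodes HIF-2α and also pairs with ARNT, rose from 98.5 to 201 CPM (1.03 ± 0.12, adjusted p = 2.4e-07). SIM1 was called lower as well, from a mean of only 0.296 CPM to 0.0293 CPM. In 0.1 µM THZ531 alone ARNT2 and PER3 already fell, by 0.23 ± 0.06 and 0.38 ± 0.10 (adjusted p = 0.0264 and 0.0316), but with mitochondrial scaling neither passed (adjusted p = 0.648 and 0.237).

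Of 12 further genes known as AHR targets, 9 could be tested. In lapatinib with THZ531, 3 were lower and 4 higher (median 0.30), where 37.8% and 34.3% of all tested genes were. With mitochondrial scaling 6 were lower and 1 higher (median −0.38), beside 9366 and 850 of the 16036 genes. HES1, a Notch effector, rose from 12.6 to 31.0 CPM (1.30 ± 0.09, edgeR adjusted p = 1.1e-10) and, in 0.1 µM THZ531 alone, to 16.2 CPM (0.36 ± 0.09, adjusted p = 0.0201, but 0.223 with mitochondrial scaling). STC2, a secreted glycoprotein, fell from 524 to 222 CPM (−1.24 ± 0.13, adjusted p = 4.8e-08). None of the 9 was called with nilotinib alone, a treatment with 0.0998% of all tested genes called lower and 0.243% higher.

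NQO1 is also a target of NRF2, so 15 genes listed as NRF2 targets, KEAP1 among them, were examined beside it. In lapatinib with THZ531, 9 were higher and 2 lower (median 0.47), in nilotinib with THZ531 8 and 2 (median 0.53), and in 1 µM THZ531 9 and 5 (median 0.30). Of all tested genes 34.3%, 33.7% and 33.1% were called higher in these treatments and 37.8%, 37.3% and 36.8% lower. With mitochondrial scaling 1 was higher and 7 lower in lapatinib with THZ531 (median −0.22), and 0 and 7 in each other treatment (medians −0.08 and −0.27). Of all 16036 genes 850, 774 and 697 were then higher and 9366, 8959 and 8424 lower. FTH1, the ferritin heavy chain, rose from 3070.5 to 5937 CPM in lapatinib with THZ531 (0.95 ± 0.06, edgeR adjusted p = 8.8e-12). KEAP1, the adaptor that marks NRF2 for degradation, fell from 64.2 to 12.2, 12.1 and 15.0 CPM in both combinations and 1 µM THZ531 (−2.39, −2.41 and −2.10 on the log2 scale, each ± 0.09, adjusted p = 9.4e-15, 1.0e-14 and 1.3e-13).

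Genes of tryptophan and kynurenine metabolism, which makes AHR ligands, were followed as well. Of 12, 10 could be tested, and 2 were lower and 4 higher in lapatinib with THZ531 (median 0.34), and 5 and 0 with mitochondrial scaling. Over all tested genes the shares were 37.8% lower and 34.3% higher, and 9366 and 850 of the 16036 genes with mitochondrial scaling. KYAT1, a kynurenine aminotransferase, rose from 3.68 to 5.27 CPM (0.52 ± 0.15, edgeR adjusted p = 0.0034, but −0.16 and 0.469 with mitochondrial scaling), and AADAT, another aminotransferase, fell from 10.5 to 7.98 CPM (−0.39 ± 0.08, adjusted p = 0.00015). Among 14 P450 partners and other P450s, 3 were lower and 8 higher (median 0.51), and 6 and 0 with mitochondrial scaling (median −0.17). The same shares of all genes apply, as this is the same comparison. CYB5A, an electron donor to P450s, rose from 8.23 to 16.0 CPM (0.96 ± 0.13, adjusted p = 2.5e-06, but 0.28 and 0.154 with mitochondrial scaling), and the vitamin D 25-hydroxylase CYP2R1 fell from 0.702 to 0.238 CPM (−1.55 ± 0.35, adjusted p = 0.00054). CYP4V2 fell in 0.1 µM THZ531 alone, by 0.38 ± 0.08 (adjusted p = 0.0075, but 0.199 with mitochondrial scaling). None of these was called with nilotinib alone (0.0998% of all tested genes lower and 0.243% higher).

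TIPARP belongs to the PARP family, of which 12 other genes were measured. In lapatinib with THZ531, 8 were lower and 3 higher (median −0.36), where 37.8% and 34.3% of all tested genes were. With mitochondrial scaling 9 were lower and 0 higher, beside 9366 and 850 of the 16036 genes. PARP9 fell from 13.9 to 3.38 CPM (−2.04 ± 0.10, edgeR adjusted p = 4.5e-13), which was a larger log2 change than that of TIPARP. PARP3 rose from 16.2 to 26.0 CPM (0.68 ± 0.07, adjusted p = 2.7e-08), which did not hold with mitochondrial scaling (−0.0015, adjusted p = 0.994). PARP16 fell from 9.65 to 5.05 CPM (−0.93 ± 0.10, adjusted p = 5.5e-08), though in 0.1 µM THZ531 alone it rose by 0.42 ± 0.10 (adjusted p = 0.0112, but 0.201 with mitochondrial scaling).

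**Figure D4:**
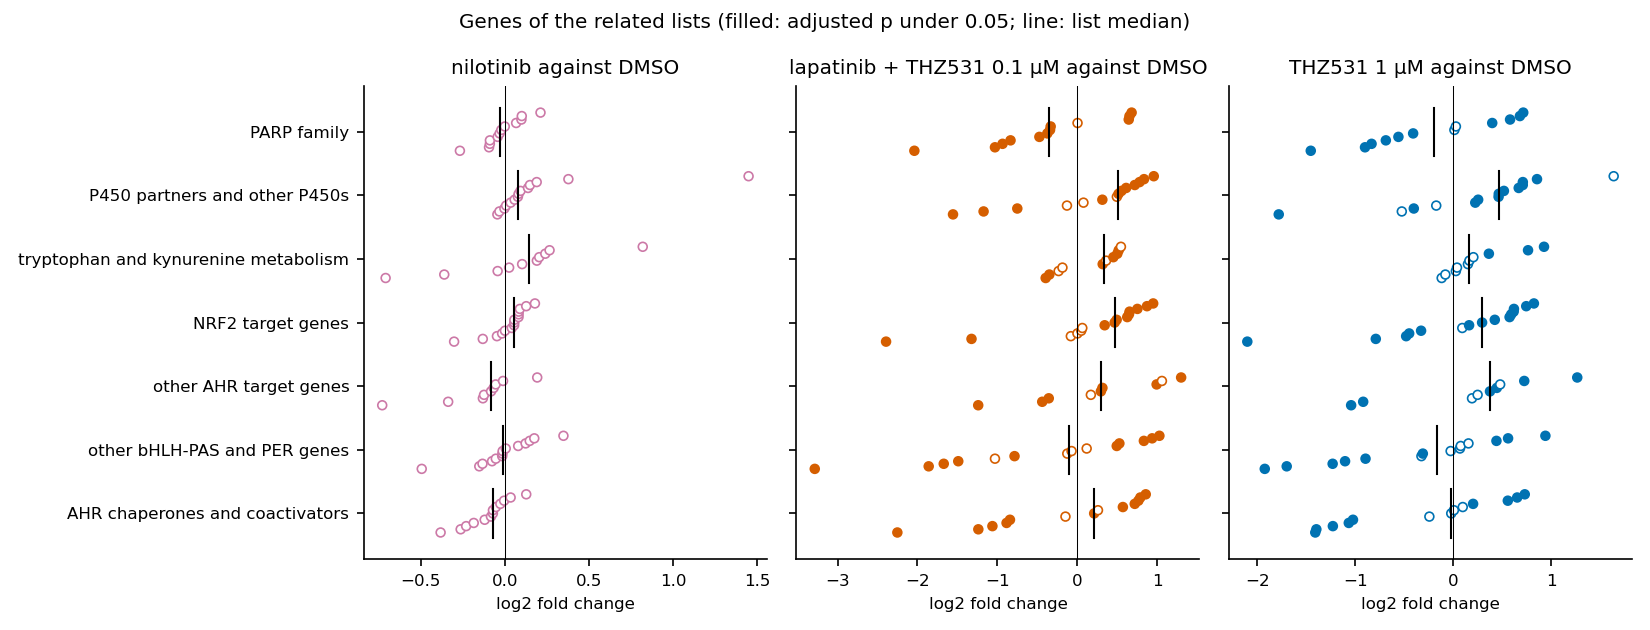
Log2 fold change against DMSO (horizontal axis, each point 1 gene, ranked within its list) for 7 related gene lists in nilotinib, lapatinib with THZ531, and 1 µM THZ531, filled where the edgeR adjusted p was under 0.05, with the list median as a vertical line. No gene of these lists passes with nilotinib alone, where 0.0998% of all tested genes were called lower and 0.243% higher. In lapatinib with THZ531 each list holds both rises and falls with TMM scaling, whereas with mitochondrial scaling no list has more than 1 gene called higher. Of all 16036 tested genes, 34.3% were called higher there with TMM scaling and 850 with mitochondrial scaling.

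The genes whose pattern over the 21 libraries was most like that of each pathway gene were ranked by Pearson's r on log2 CPM over 10913 genes, as a description across libraries that share treatments. For CYP1B1 the nearest were ENPP2 (r = 0.821), TGFB2 (0.816) and TMEM87A (0.808). TGFB2, a growth factor, averaged 53.5 CPM in DMSO, 68.0 CPM in 0.1 µM THZ531, 35.0 CPM in nilotinib and 46.7 CPM in lapatinib. ENPP2, which encodes autotaxin, averaged 4.09, 4.53, 3.23 and 3.01 CPM in the same groups. In lapatinib with THZ531, nilotinib with THZ531 and 1 µM THZ531, TGFB2 averaged 51.1, 42.7 and 55.4 CPM and ENPP2 2.97, 2.63 and 3.71 CPM. TGFB2 was thus higher in each combination than with its kinase inhibitor alone. The others had closer neighbours, DHX34 for AHRR (r = 0.996), OSR1 for TIPARP (0.979) and ATP2B1 for AHR (0.963). No gene followed CYP1B1 as closely as the nearest gene followed AHRR, TIPARP or AHR. CYP1B1 also had fewer counts than these, 690 to 2023 per library, and what part this had in its lower r was not tested.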

How the data were processed

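RNA from 21 Hs578T libraries, 3 per group, was sequenced as unstranded, poly(A)-selected paired-end libraries. The authors deposited raw counts per gene without normalization, made per the labels with HISAT2 2.1.0 on GRCh38 and featureCounts. Whether pairs or ends were counted is not given in the sources used here. Replicates come from separate experiments per the study's methods. No count column was left unused.

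Entrez IDs were matched to NCBI symbols (27745 of 28395). Counts were filtered with filterByExpr, TMM-scaled and fitted over all 7 groups in edgeR 4.0.16 (R 4.3.3), with quasi-likelihood tests of 12 comparisons and Benjamini-Hochberg adjustment over 16036 genes. The fit was tested on simulated data in which few genes changed, all in 1 µM THZ531. This does not cover treatments where most genes moved. Mean log2 CPM used a prior count of 2. Alternatives were DESeq2 1.42.0, 4 other scalings, 2 filters, a fit of only the groups compared, the replicate block and each library left out.

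The 7 genes and all lists were chosen with earlier results of these data known. Named list genes were those called with the largest rise and fall in lapatinib with THZ531 against DMSO, and those called in 0.1 µM THZ531. Paralogues and overlapping genes may share reads. CYP1B1-AS1, opposite CYP1B1, had 2 to 16 counts.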

Additional observations from a re-analysis of the deposited data

Results flagged for a closer look

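For 5 of the 7 genes the effect of 0.1 µM THZ531 in the presence of nilotinib differed from its effect without it, by edgeR's interaction test. The log2 difference between the effects was 1.25 for AHR, −1.55 for AHRR, −0.82 for ARNT, −0.67 for TIPARP and 0.61 for NQO1. Without nilotinib the effect of 0.1 µM THZ531 lay between −0.17 for AHRR and 0.12 for ARNT in these 5 genes. Over all tested genes, 31.2% had a lower and 25.6% a higher effect with nilotinib. The NQO1 value was 0.18 and did not pass the test with mitochondrial scaling (adjusted p = 0.526).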

How the results depend on the processing

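Each of 84 gene comparisons was recomputed under 30 alternatives, and 54 of the 2520 values had the other sign, 3 of them past the test in either fit. With mitochondrial scaling AHR in 1 µM THZ531 was −0.45 against DMSO and −0.50 against 0.1 µM THZ531 (adjusted p = 0.0352 and 0.0197), and CYP1B1 −0.54 against DMSO (adjusted p = 0.0024). The other sign changes were small. With mitochondrial scaling they were ARNT −0.16, CYP1A1 −0.078 and NQO1 −0.17 in nilotinib against DMSO, CYP1A1 in 1 µM THZ531 at −0.17 against DMSO and −0.20 against 0.1 µM THZ531, ARNT −0.027, TIPARP −0.0089 and NQO1 −0.013 in nilotinib with THZ531 against 1 µM THZ531, and TIPARP in lapatinib with THZ531 at −0.021 against 1 µM THZ531 and −0.013 against nilotinib with THZ531. With library size alone they were AHR −0.14 and CYP1B1 −0.23 in 1 µM THZ531 against DMSO, AHR −0.15 against 0.1 µM THZ531, ARNT −0.011 and NQO1 −0.0055 in nilotinib, and CYP1A1 −0.0023 in 0.1 µM THZ531. With upper-quartile scaling they were ARNT −0.011 in nilotinib with THZ531 against 1 µM THZ531, CYP1A1 0.14 in nilotinib with THZ531 against DMSO and 0.14 against 0.1 µM THZ531, CYP1A1 0.044 in the interaction, and CYP1B1 0.021 between the THZ531 doses. CYP1A1 in nilotinib with THZ531 against DMSO was 0.047 with DESeq2's size factors, 0.047 with DESeq2, 0.010 with at least 10 counts in every library and 0.0025 in a fit of only the groups compared.

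With 1 library left out, ranges that crossed 0 were, for AHR, −0.028 to 0.091 in 0.1 µM THZ531, −0.14 to 0.36 in 1 µM THZ531, −0.19 to 0.32 between the doses and −0.0030 to 0.38 between the combinations. For ARNT and NQO1 in nilotinib they were −0.032 to 0.057 and −0.039 to 0.056. For CYP1A1 they were −0.0051 to 0.24 in nilotinib, −0.032 to 0.095 in 0.1 µM THZ531, and −0.066 to 0.061 and −0.0962 to 0.0146 in nilotinib with THZ531 against DMSO and 0.1 µM THZ531. CYP1B1 in 1 µM THZ531 ranged from −0.071 to 0.12. TIPARP ranged from −0.071 to 0.23 and −0.12 to 0.18 in the combinations against 1 µM THZ531 and from −0.043 to 0.12 between them, and NQO1 from −0.0065 to 0.12 in nilotinib with THZ531 against 1 µM THZ531. The number of the 7 genes called with nilotinib ranged from 1 to 2.

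The labels do not say whether equal replicate numbers share an experiment, and the main fit had no block for them. Deviations from the group means correlated above 0.1 in 35 of 63 same-numbered pairs (median 0.17) and 48 of 126 others (median −0.086). Of the 21 libraries, 8 correlated best with their own number. These values do not settle whether the numbers pair the samples. With the number as a block, NQO1 in lapatinib with THZ531 against 1 µM THZ531 passed (0.17, adjusted p = 0.0328, against 0.0679), and no other call changed. It also passed without replicate 2 of lapatinib with THZ531 and without replicate 1 of nilotinib with THZ531 (0.22 and 0.18, adjusted p = 0.0448 and 0.0445). The cause of these changes was not tested. CYP1A1, at 54 to 130 counts, is the gene that depth limits most.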
